A study of Homo sapiens with 6 samples.

Results

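SET, the acidic chaperone also called TAF-Iβ or I2PP2A, was followed here together with the proteins known to sit beside it: the ANP32 family members ANP32A, ANP32B and ANP32E, and the SET complex members HMGB2, APEX1, NME1 and TREX1. These 8 genes were taken by name from the 19934 gene symbols of the count tables, and all 8 were found there. A filter on low counts let 7 of them into the tests, and TREX1, with no counts, was the exception. RNA was sequenced from H1299, an established human lung cancer line that lacks p53. Cells received a control siRNA (si-Ctr), an siRNA against SET (si-SET) or an siRNA against ZBTB11 (si-ZBTB11), a zinc finger protein that the study pairs with SET, and 2 libraries were made for each condition. A Lipofectamine reagent delivered the siRNA in all 3 conditions, si-Ctr included, and the si-Ctr cells are labelled wild type. A knockdown lowers an mRNA without removing it, a single SET oligo is listed, and which of the 2 listed ZBTB11 oligos went into which library is not given in the sources used here.

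As background, SET, which carries an acidic C-terminal region, binds histones. In doing so it keeps histone tails from acetyltransferases, an activity called INHAT that ANP32A shares, and SET and ANP32A are both known inhibitors of the phosphatase PP2A. ANP32B is a histone chaperone, and ANP32E removes the variant histone H2A.Z from chromatin. The SET complex was described in cells killed by granzyme A, a protease of cytotoxic lymphocytes that cleaves SET, HMGB2 and APEX1. HMGB2 is a chromatin protein that bends DNA, APEX1 cuts DNA at abasic sites during base excision repair, NME1 is a nucleoside diphosphate kinase that nicks DNA once freed from SET, and TREX1 is an exonuclease that clears DNA from the cytosol.

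What SET, HMGB2 and the 3 ANP32 proteins have in common can be read at the end of their coding sequences. The last 30 codons before the stop codon of each MANE Select transcript, the reference transcript of a gene, are shown for these 5 genes, from the GENCODE version 44 transcripts, 5′ to 3′ in reading frame. Capitals mark codons that start with GA and encode the acidic residues aspartate or glutamate.
SET: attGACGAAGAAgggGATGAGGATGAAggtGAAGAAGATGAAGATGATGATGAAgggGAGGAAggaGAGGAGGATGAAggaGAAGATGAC
HMGB2: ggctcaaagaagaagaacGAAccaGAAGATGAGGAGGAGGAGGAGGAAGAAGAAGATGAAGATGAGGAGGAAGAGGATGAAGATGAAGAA
ANP32B: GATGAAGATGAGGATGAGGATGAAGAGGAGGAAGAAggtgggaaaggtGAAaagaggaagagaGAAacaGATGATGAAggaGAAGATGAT
ANP32A: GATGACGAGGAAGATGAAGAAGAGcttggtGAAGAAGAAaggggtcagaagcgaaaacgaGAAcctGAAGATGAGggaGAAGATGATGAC
ANP32E: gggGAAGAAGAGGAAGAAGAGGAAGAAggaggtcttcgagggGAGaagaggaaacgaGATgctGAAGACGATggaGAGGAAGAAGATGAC

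Acidic codons fill 24 of the last 30 positions in SET, 23 in HMGB2, 20 in ANP32B, 19 in ANP32A and 18 in ANP32E. Over the 19026 MANE Select transcripts with a complete coding sequence, the median was 3. As many as in SET were found in 5 of those transcripts, SET among them, and as many as in ANP32E in 26. The other SET complex members do not share the feature, with 7 acidic codons in NME1, 2 in APEX1 and 2 in TREX1. The acidic end is thus found in the histone-binding and DNA-bending members and not in the 3 enzymes.

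The 6 libraries held between 16653115 and 17694522 counts. A floor of 3 counts lay between 0.170 and 0.179 CPM, where CPM is the count scaled to a common library total with TMM factors, and such limits cover counting error only. Replicates varied beyond sampling noise, with a chi-square per degree of freedom of 2.34 to 2.71, and were kept as separate samples. Their SD of log2 CPM had a median of 0.06 in each condition. No label ties a library to a separate culture, although the study calls them biologically independent, so p-values measure the spread between these libraries. Of the line's marker genes, KRT8, KRT18 and VIM were abundant, whereas the epithelial genes EPCAM, CDH1 and KRT19 stayed at 12 counts or fewer and the lung gene NKX2-1 at 37 to 61. Immune, endothelial and fibroblast markers, summed for each cell type apart, reached at most 0.715 CPM in any library. CPM is a share of each library, so a change in total RNA per cell cannot be told apart from no change.

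The SET gene occupies the plus strand of chromosome 9 (hg38, 128683424 to 128696400). The si-SET oligo is shown because it decides which genes a knockdown could reach. Written as listed, in RNA letters and in the sense of its target, its capitals mark the 7 bases that pair with the seed of the guide strand.
si-SET: gugacagaauuUGAAGAUa

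This oligo matches SET at chr9:128692721-128692739 without a mismatch. It matches the genome at 9 places in all, including SETSIP, a SET-like gene on chromosome 1, and several processed pseudogenes of SET. Against the other members the best ungapped site in the transcripts left 5 mismatches in HMGB2 and APEX1, 6 in ANP32A and ANP32E, 7 in ANP32B, 8 in NME1 and 9 in TREX1. The 7-base seed match occurs once in the 3′ UTR of ANP32E and in no other member's. It is also present in 15.1% of the 19061 MANE Select 3′ UTRs. For ZBTB11 oligo #2, the seed match occurs once in the 3′ UTR of SET and once in that of NME1. It is present in 8.69% of the MANE Select 3′ UTRs. The seed match of ZBTB11 oligo #1 occurs in no member's 3′ UTR.

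SET mRNA fell to 8.98% of its control level in cells given si-SET and stayed at 101% in cells given si-ZBTB11. Its counts were 11656 and 11007 with si-Ctr, 1032 and 1031 with si-SET, and 11441 and 11244 with si-ZBTB11. The si-SET libraries stood far below all 4 others, which overlapped. In normalized units the means were 662 ± 5.90, 59.5 ± 1.61 and 667 ± 4.92 CPM (SD, n = 2 each). The log2 fold change on SET knockdown was −3.48 ± 0.05 (SE; edgeR quasi-likelihood test, Benjamini-Hochberg adjusted p = 3.08e-88), and against si-ZBTB11 it was −3.49 ± 0.05 (edgeR, adjusted p = 7.35e-33). On ZBTB11 knockdown the change of SET was 0.01 ± 0.03 (edgeR, adjusted p = 0.863), with a 95% interval from −0.06 to 0.08.

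Because SET has many processed copies, 25.3% of the 31-base words in its exons occur elsewhere in the genome, against 0 to 3.03% for the other members. How reads that match several places were counted is not given in the sources used here, so the SET level is uncertain on that account. The share of 31-base words does not give the size of this uncertainty, because the sequenced reads were longer than these words. SETSIP itself drew 4 and 4 counts with si-Ctr, 0 and 2 with si-SET, and 5 and 1 with si-ZBTB11. ANP32D, an ANP32A-like gene, had at most 2 counts in a library, and ANP32C was not among the symbols. None of these copies was abundant enough for a test.

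ZBTB11, the target of the other siRNA, had 925 and 1075 counts with si-Ctr, 846 and 708 with si-SET, and 548 and 544 with si-ZBTB11. Its change was −0.86 ± 0.08 on ZBTB11 knockdown (edgeR, adjusted p = 4.45e-17) and −0.39 ± 0.08 on SET knockdown (edgeR, adjusted p = 2.12e-05). The 2 knockdowns were thus of unequal depth at their own targets.

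**Figure D1:**
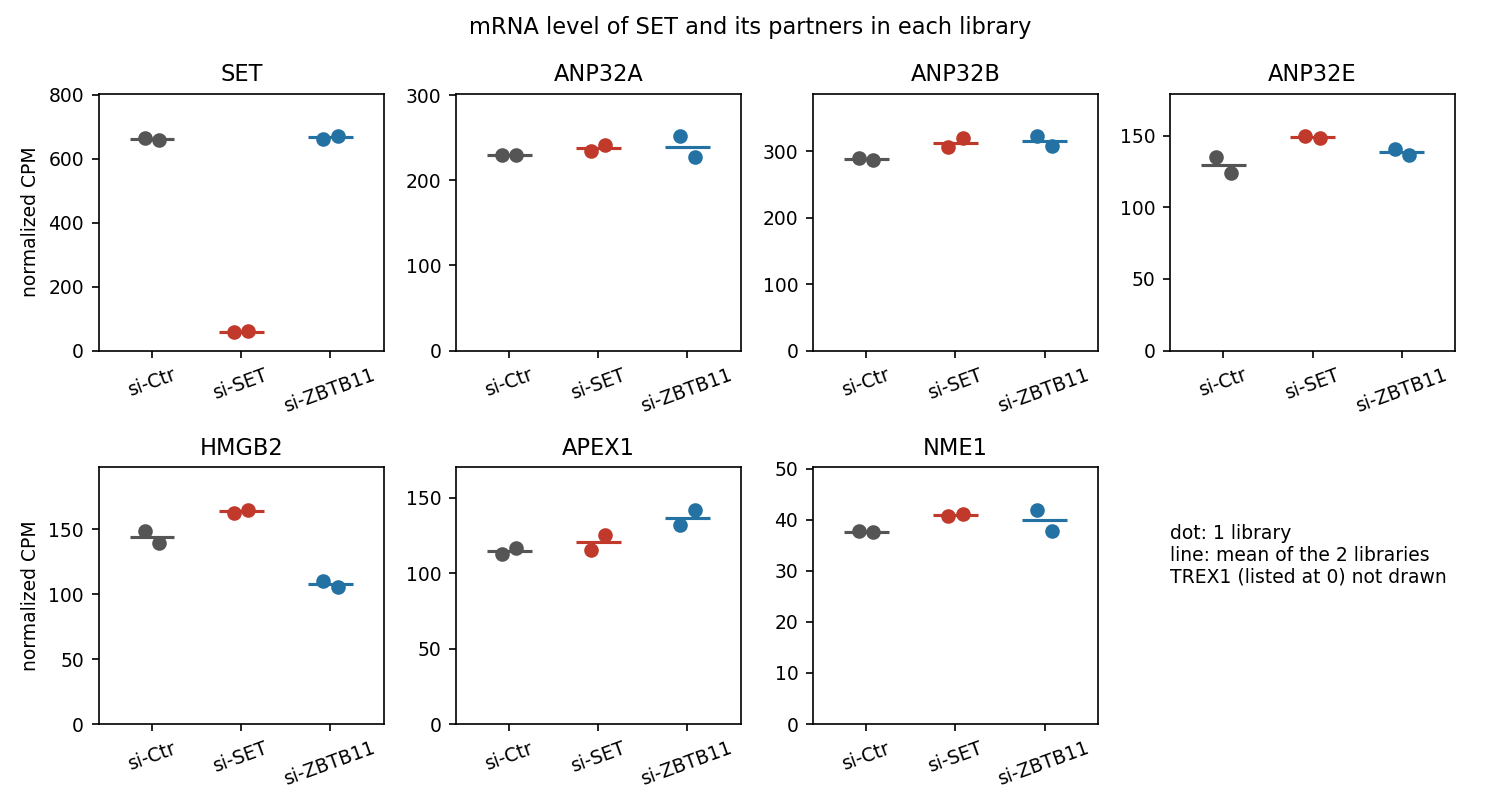
Normalized counts (CPM, axis from 0) of the 7 members with counts, in each of the 6 libraries. Dots are libraries and lines are the means of 2. SET drops in si-SET alone, from 662 to 59.5 CPM, while HMGB2 is lowest and APEX1 highest in si-ZBTB11.

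Of the 7 tested members, 3 rose on SET knockdown (ANP32B, ANP32E and HMGB2), SET itself fell and 3 did not pass (ANP32A, APEX1 and NME1). Over all 13599 genes tested, 13.1% were called higher and 13.9% lower at an adjusted p-value under 0.05. On ZBTB11 knockdown 2 members rose (ANP32B and APEX1), HMGB2 fell and 4 did not pass, where 9.94% of 13534 genes were called higher and 10.5% lower. When the knockdowns were set against each other, HMGB2 was higher in si-SET, SET and APEX1 were lower and 4 did not pass, with 8.58% of 13549 genes called higher and 9.61% lower. The partners' changes were small. At the criteria of the study, which ask for a change of over 1 on the log2 scale in either direction with p under 0.05 before adjustment, SET on its own knockdown was the only member called, among 2.15% of genes, and on ZBTB11 knockdown no member was called, among 1.57% of genes. The median log2 fold change of all genes was 0.00 in each comparison. Both knockdowns were set against the same si-Ctr libraries, and a deviant control would shift both fold changes together.

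Within the ANP32 family, the histone chaperones ANP32B and ANP32E rose by a small amount on SET knockdown and ANP32A did not change detectably. ANP32E lies on the minus strand of chromosome 1 from 150218417 to 150236156. It had 2357 and 2074 counts with si-Ctr, 2645 and 2525 with si-SET, and 2423 and 2285 with si-ZBTB11, or 129 ± 7.61, 149 ± 0.743 and 138 ± 3.02 CPM (SD, n = 2 each). In CPM both si-SET libraries lay above the 4 others, and those of si-ZBTB11 lay between. The log2 fold change of ANP32E was 0.20 ± 0.05 on SET knockdown (edgeR, adjusted p = 0.000624), or 15.1% more mRNA. On ZBTB11 knockdown it was 0.10 ± 0.05 (edgeR, adjusted p = 0.164). The difference between the knockdowns was 0.11, with an interval from 0.01 to 0.20 that the adjusted test did not call (edgeR, adjusted p = 0.14). Without si-Ctr replicate 2, the lower of the controls, the call on SET knockdown was lost (edgeR, adjusted p = 0.105).

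ANP32B, on the plus strand of chromosome 9 from 97983341 to 98015943, rose by similar amounts in both knockdowns. It had 289.8 and 286.4 CPM with si-Ctr, 306.7 and 319.2 with si-SET, and 322.3 and 307.7 with si-ZBTB11. Both controls lay below all 4 knockdown libraries, and the knockdowns overlapped each other. The log2 fold changes were 0.12 ± 0.04 on SET knockdown (edgeR, adjusted p = 0.0183) and 0.13 ± 0.04 on ZBTB11 knockdown (edgeR, adjusted p = 0.0112). Set against each other, the knockdowns differed by −0.01, with an interval from −0.09 to 0.07. Both calls rested on thin margins, since DESeq2 gave adjusted p = 0.0727 and 0.052. They were also lost without si-Ctr replicate 1 (edgeR, adjusted p = 0.0913 and 0.0551) or si-Ctr replicate 2 (0.161 and 0.117), and without si-SET replicate 2 (0.169) or si-ZBTB11 replicate 1 (0.168).

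ANP32A, which shares the INHAT and PP2A-inhibiting activities of SET, lies on the minus strand of chromosome 15 from 68778535 to 68820897. It had 230 ± 0.0678 CPM with si-Ctr, 238 ± 4.66 with si-SET and 239 ± 17.3 with si-ZBTB11 (SD, n = 2 each). The si-ZBTB11 libraries spanned the range of the others. The log2 fold changes were 0.05 (95% interval −0.03 to 0.13) on SET knockdown and 0.06 (−0.02 to 0.15) on ZBTB11 knockdown, with edgeR adjusted p = 0.429 and 0.353.

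Summed over ANP32A, ANP32B and ANP32E, the family stood at 654 and 640 CPM with si-Ctr, 691 and 708 with si-SET, and 714 and 671 with si-ZBTB11. With SET added, the sum was 1321 and 1298 with si-Ctr, 749 and 769 with si-SET, and 1378 and 1341 with si-ZBTB11. The rise of the family mRNAs in si-SET libraries was thus much smaller, in CPM not scaled to gene length, than the loss of SET mRNA.

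Apart from SET, HMGB2 was the member whose level differed most between the knockdowns, higher than control in one and lower in the other. It lies on the minus strand of chromosome 4 from 173331376 to 173334432. Its counts were 2601 and 2328 with si-Ctr, 2884 and 2808 with si-SET, and 1906 and 1768 with si-ZBTB11. In CPM these came to 144 ± 6.74, 164 ± 1.47 and 108 ± 3.61 (SD, n = 2 each), and the 3 conditions did not overlap. On SET knockdown the log2 fold change was 0.19 ± 0.05 (edgeR, adjusted p = 0.00106), and this call was lost without si-Ctr replicate 2 (edgeR, adjusted p = 0.103). On ZBTB11 knockdown it was −0.41 ± 0.05 (edgeR, adjusted p = 8.46e-11), which left 75.0% of the control level. The direct difference between the knockdowns was 0.60 ± 0.05 (edgeR, adjusted p = 8.14e-11), so that HMGB2 was 51.8% higher in si-SET than in si-ZBTB11.

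Its size can be read against all genes. On SET knockdown 58.8% of the genes tested moved no further than HMGB2 in absolute log2 fold change. On ZBTB11 knockdown the share was 88.2%, and between the knockdowns it was 93.9%. The fall on ZBTB11 knockdown and the direct difference held their calls under every alternative that used the adjusted p-value. HMGB1, the close paralog of HMGB2, changed by 0.02 ± 0.04 on SET knockdown and 0.06 ± 0.04 on ZBTB11 knockdown (edgeR, adjusted p = 0.802 and 0.347). HMGB3 changed by 0.07 ± 0.06 and 0.13 ± 0.06 (edgeR, adjusted p = 0.428 and 0.123). HMGB2 is known to vary with proliferation, so the proliferation markers MKI67, TOP2A, CDK1, CCNB1, CCNA2, BUB1, PCNA, MCM2, TYMS and RRM2 are set beside it. Their summed level was 1726 to 1808 CPM with si-Ctr, 1885 to 1967 with si-SET and 1701 to 1803 with si-ZBTB11, and none of the 10 was at 0. On SET knockdown 5 rose and CCNA2 fell, where 13.1% of all genes were called higher and 13.9% lower. The part of these markers in the HMGB2 rise was not tested. On ZBTB11 knockdown edgeR called 0 of the 10, against 9.94% of all genes higher and 10.5% lower. None of the 10 had an unadjusted p-value under 0.05 or a DESeq2 call, and their part in the HMGB2 fall was not tested. Between the knockdowns, edgeR called 5 of the 10 higher and CCNA2 lower in si-SET, against 8.58% and 9.61% of all genes. The part of the markers in the direct HMGB2 difference was not tested. Under its conditions, the study reported no obvious effect of either knockdown on H1299 proliferation or the cell cycle.

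APEX1, the abasic endonuclease, rose on ZBTB11 knockdown and did not change detectably on SET knockdown. It lies on chromosome 14 from 20455191 to 20457772 on the plus strand. It had 1970 and 1947 counts with si-Ctr, 2041 and 2136 with si-SET, and 2272 and 2381 with si-ZBTB11, or 115 ± 2.67, 120 ± 7.22 and 137 ± 7.22 CPM (SD, n = 2 each). Both si-ZBTB11 libraries lay above the 4 others, among which si-Ctr and si-SET overlapped. The log2 fold change was 0.26 ± 0.05 on ZBTB11 knockdown (edgeR, adjusted p = 3.34e-05), or 19.6% more mRNA, and this call held under every alternative that used the adjusted p-value. On SET knockdown it was 0.07, with an interval from −0.03 to 0.17 (edgeR, adjusted p = 0.315). The direct difference, si-SET against si-ZBTB11, was −0.18 ± 0.05 (edgeR, adjusted p = 0.0144). This last call was lost without si-SET replicate 1 (adjusted p = 0.195) or si-ZBTB11 replicate 2 (adjusted p = 0.191) and with DESeq2 (adjusted p = 0.074).

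NME1 lies on chromosome 17 from 51153559 to 51162428 on the plus strand, where 18.7% of its exon bases are shared with the readthrough gene NME1-NME2, so its counts are uncertain. It was the least counted of the tested members, with 660 and 627 counts with si-Ctr, 719 and 700 with si-SET, and 723 and 634 with si-ZBTB11. All 4 knockdown libraries were above the controls in CPM, but by little in one si-ZBTB11 library (37.80 against 37.73 and 37.48). The log2 fold changes were 0.12 (95% interval −0.04 to 0.28) on SET knockdown and 0.09 (−0.07 to 0.24) on ZBTB11 knockdown, with edgeR adjusted p = 0.281 and 0.507. The intervals leave room for a change as large as that of HMGB2 on SET knockdown. NME1-NME2 held at most 13 counts in a library and NME2 between 92 and 138.

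**Figure D2:**
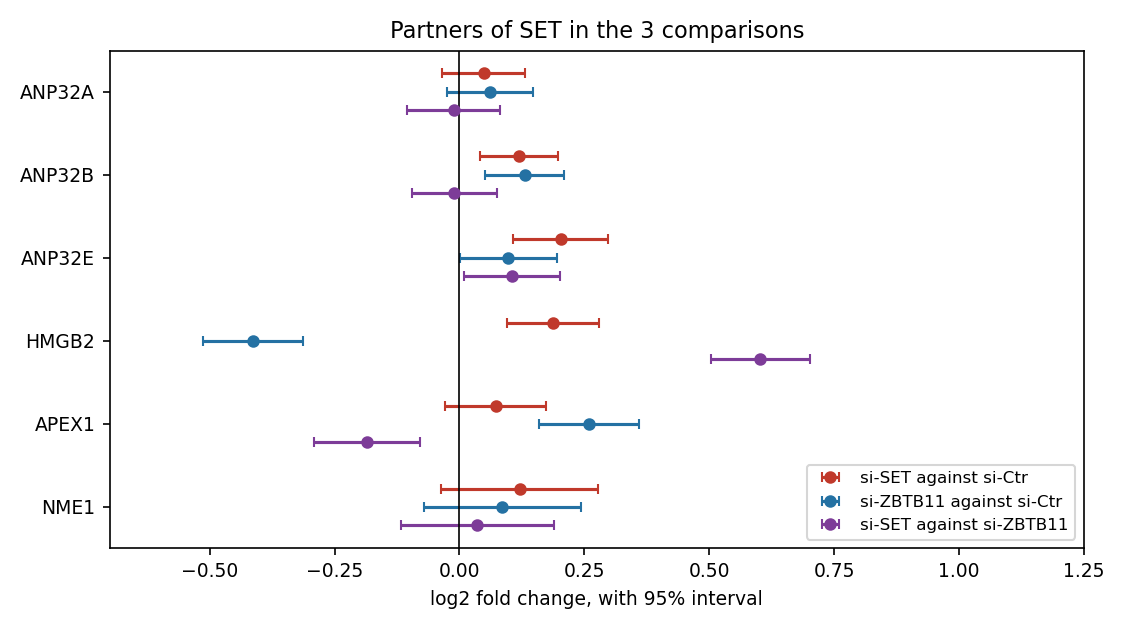
Log2 fold changes of the 6 tested partners of SET in the 3 comparisons, with bars for the 95% interval. HMGB2 sits at 0.19, −0.41 and 0.60 and APEX1 at 0.07, 0.26 and −0.18, while ANP32B has nearly the same value (0.12 and 0.13) in both knockdowns. SET, at −3.48 and −3.49 in its own knockdown comparisons, is off this scale and not drawn.

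TREX1 is listed at 0 in all 6 libraries, which puts it under the floor of 0.170 to 0.179 CPM as counted. TREX1 is on chromosome 3 from 48465811 to 48467645 on the plus strand, and 100% of its exon bases lie inside exons of ATRIP on the same strand in GENCODE version 44. A read from such bases cannot be given to one gene by position. Among the 91 genes whose exons are covered by at least 95% in this way, 58 (63.7%) had no count in any library, against 2179 of 17249 genes (12.6%) that share no exon base with another coding gene on their strand. ATRIP, which encodes the partner of the checkpoint kinase ATR, had 295 and 314 counts with si-Ctr, 332 and 289 with si-SET, and 302 and 258 with si-ZBTB11. The counting annotation and strand setting are not given in the sources used here, and the zero does not give the expression of TREX1. The cause of the zero was not tested, and no change of TREX1 on either knockdown could be measured. Its paralog TREX2 had 7 to 20 counts in a library.

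**Figure D3:**
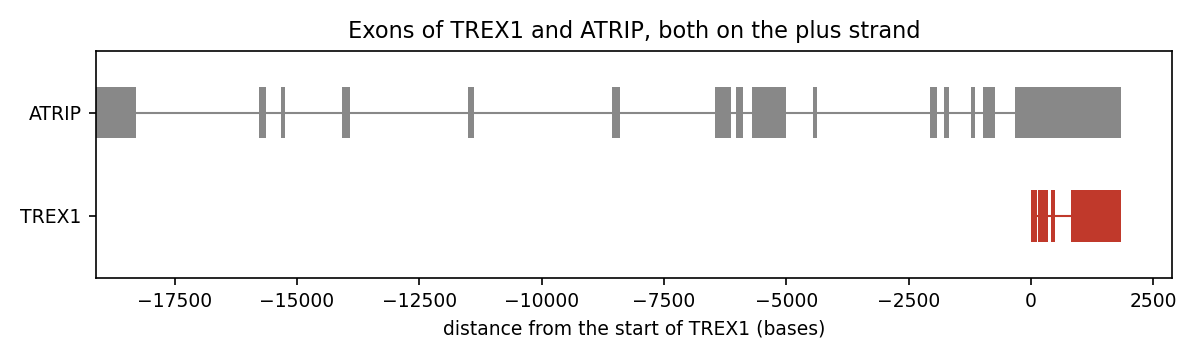
Exons (boxes) of TREX1 and ATRIP along the genome, in bases from the start of TREX1, with all annotated transcripts merged. Every TREX1 box falls within the last ATRIP exon block, the 100% overlap given in the text.

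Levels of different genes were ranked only per length, as CPM per kilobase of the merged exons of each gene. With si-Ctr the order was ANP32B (154), SET (111), APEX1 (60.7), HMGB2 (59.9), ANP32E (35.9), ANP32A (30.5) and NME1 (11.01). The neighbours APEX1 and HMGB2 overlapped between libraries, and the other neighbours did not. With si-SET, SET moved to the last place at 10.0, under NME1 at 11.97, and HMGB2 (68.3) stood above APEX1 (63.9). With si-ZBTB11 SET stayed second at 112 and APEX1 (72.6) stood clear of HMGB2 (45.0). This order depends on which length is taken. Per kilobase of the MANE Select transcript, with si-Ctr, SET came first at 226, followed by ANP32B (194), HMGB2 (99.9), ANP32A (94.2), APEX1 (78.8), NME1 (42.3) and ANP32E (37.97). Under both lengths SET and ANP32B held the upper places in si-Ctr and SET was last in si-SET.

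**Figure D4:**
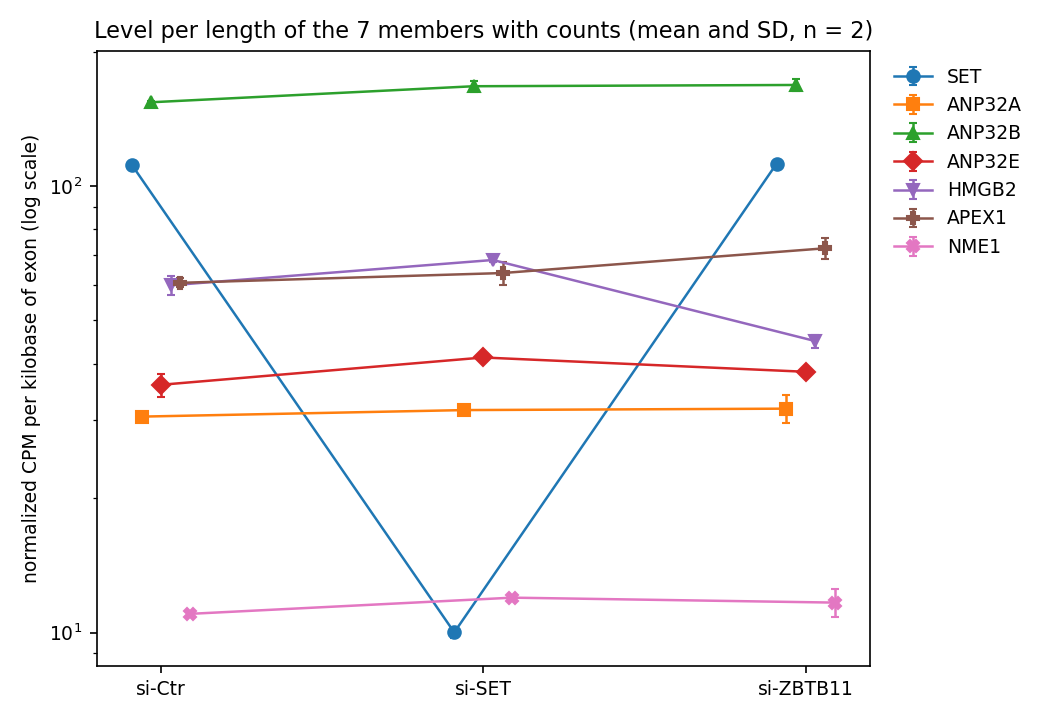
Level per length of the 7 members with counts, as CPM per kilobase of merged exons on a log scale, for each condition. Points and bars are means and SDs of 2 libraries. SET falls from 111 to 10.0 in si-SET, the lowest of the 7, and HMGB2 and APEX1 separate in si-ZBTB11, at 45.0 and 72.6.

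The genes whose pattern over the 6 libraries was most like each member's were found as the smallest root mean square difference of centred log2 CPM among 10870 genes with a mean of at least 100 counts. For SET no gene came near. EPS15, ECM1, APOL6, MAP1A and IFIT3 were closest, at differences of 1.090 (EPS15) to 1.147 (IFIT3) on the log2 scale, and their own changes on SET knockdown were −1.35, −1.01, −1.43, −1.14 and −1.24. For HMGB2 the closest were RYBP (0.0146) and SNRNP27 (0.0233), with log2 fold changes of −0.42 and −0.37 on ZBTB11 knockdown. For APEX1 they were HSD17B10 (0.0233) and BCS1L (0.0245), at 0.25 and 0.24 on ZBTB11 knockdown. TMEM18 (0.0113) and PCOLCE2 (0.0149) were closest to ANP32A, CAPZB (0.0128) and MAT2B (0.0155) to ANP32B, MARCH8 (0.00864) and DCLRE1B (0.00972) to ANP32E, and PRPS1 (0.0189) and PCMTD2 (0.0201) to NME1. With 6 libraries and this many genes searched, such closeness is a description only.

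The pathways in which the members work were read from lists of their known genes. The base excision repair list, which holds APEX1, was tested in full, and of its 20 genes 5 rose and 4 fell on SET knockdown, with a median log2 fold change of 0.02. Over all genes 13.1% rose and 13.9% fell, and DESeq2 called 2 of the 20 higher and 1 lower. The DNA glycosylase MPG fell by 0.47 (edgeR, adjusted p = 8.22e-05) and NEIL1 by 0.41 (adjusted p = 0.0302), while MUTYH rose by 0.45 (adjusted p = 0.000663). DESeq2 did not call NEIL1 here (adjusted p = 0.229). On ZBTB11 knockdown APEX1 was the 1 gene of this list that rose, and NEIL1 (−0.65), TDG (−0.40) and FEN1 fell. Of these 3, DESeq2 called NEIL1 and TDG. Of all genes, 9.94% were called higher and 10.5% lower on ZBTB11 knockdown. TDG, the thymine DNA glycosylase, differed between the knockdowns by 0.62 ± 0.09 (edgeR, adjusted p = 2.22e-06), with 593 and 574 counts in si-Ctr, 697 and 678 in si-SET, and 468 and 408 in si-ZBTB11. OGG1 (−0.50) and MPG (−0.32) were lower in si-SET than in si-ZBTB11. This direct comparison had 5 higher and 3 lower genes of the 20, against 8.58% and 9.61% of all genes. DESeq2 called TDG alone there, with OGG1 at adjusted p = 0.0671 and MPG at 0.145.

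Among the genes of cytosolic nucleic acid sensing and clearance, the pathway of TREX1, 5 of the 10 tested fell on SET knockdown and 5 did not pass, where 13.9% of all genes were called lower. TREX1 was left out for want of counts. The median log2 fold change of the list, which was chosen with earlier results of these data known, was −0.24, against 0.00 over all genes. EdgeR called 0 higher, and none rose at an unadjusted p-value under 0.05 or with DESeq2, which also called 5 lower. The adaptor STING1 (TMEM173 in the tables) fell by 0.68 ± 0.07 (edgeR, adjusted p = 3.59e-13), from 1132 and 1088 counts in si-Ctr to 652 and 753 in si-SET. The DNA sensor CGAS fell by 0.53 ± 0.07 (adjusted p = 5.06e-09) and the RNA sensor IFIH1 by 0.39 ± 0.08 (adjusted p = 6.63e-05). On ZBTB11 knockdown 2 of the 10 fell, SAMHD1 (−0.18) and IRF3 (−0.17), where 10.5% of all genes were called lower. DESeq2 called neither. STING1 and CGAS were lower in si-SET than in si-ZBTB11, by −0.65 ± 0.08 and −0.44 ± 0.07 (edgeR, adjusted p = 1.75e-07 and 4.52e-05).

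The genes of H2A.Z and of the SRCAP and p400 complexes, which put H2A.Z into chromatin where ANP32E takes it out, changed little. On SET knockdown ANP32E itself was the 1 of 13 that was called, with a list median of 0.07. Over all genes 13.1% were called higher and 13.9% lower on SET knockdown. These shares were 9.94% and 10.5% on ZBTB11 knockdown, and 8.58% and 9.61% between the knockdowns. On ZBTB11 knockdown the ATPase RUVBL1 fell (−0.21, edgeR adjusted p = 0.00186), and between the knockdowns RUVBL1 (0.32) and H2AZ1 (0.13) were higher in si-SET, the latter not called by DESeq2 (adjusted p = 0.104). Among 11 tested acetyltransferases and binding partners of SET, PPP2CA, a catalytic subunit of the phosphatase PP2A, fell by 0.68 ± 0.05 on SET knockdown (edgeR, adjusted p = 4.71e-24), from 3558 and 3292 counts to 2265 and 2074. It had 3324 and 3074 counts with si-ZBTB11, and the difference between the knockdowns was −0.59 ± 0.05 (edgeR, adjusted p = 8.83e-11). The acidic nucleolar chaperone NPM1 rose by 0.17 ± 0.03 and 0.20 ± 0.03 on the knockdowns of SET and ZBTB11 (edgeR, adjusted p = 1.11e-05 and 8.09e-08), and ZBTB11 was the other gene of the list that fell.

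Paralogs of the partners were largely not called. Of 9 tested, the mitochondrial kinase NME4 (0.31 ± 0.05, edgeR adjusted p = 4.08e-08) and the nuclease APEX2 (0.25 ± 0.07, adjusted p = 0.00301) rose on SET knockdown. Over all genes 13.1% were called higher and 13.9% lower on SET knockdown. These shares were 9.94% and 10.5% on ZBTB11 knockdown, and 8.58% and 9.61% between the knockdowns. On ZBTB11 knockdown edgeR called 0 of the 9, with 1 higher at an unadjusted p-value under 0.05 and none by DESeq2. Between the knockdowns NME4 (0.25) and APEX2 (0.20) were higher and NME7 (−0.28) was lower in si-SET. DESeq2 called NME4 alone in that comparison (APEX2 0.199 and NME7 0.247, adjusted p) and on SET knockdown (APEX2, adjusted p = 0.0547). The largest called changes among the proliferation markers on SET knockdown were RRM2 (0.36), PCNA (0.35) and MKI67 (0.19). Granzyme A itself (GZMA) and perforin (PRF1), the lymphocyte proteins that act on the SET complex, had no counts in any library, nor did the SET-binding gene SETBP1.

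**Figure D5:**
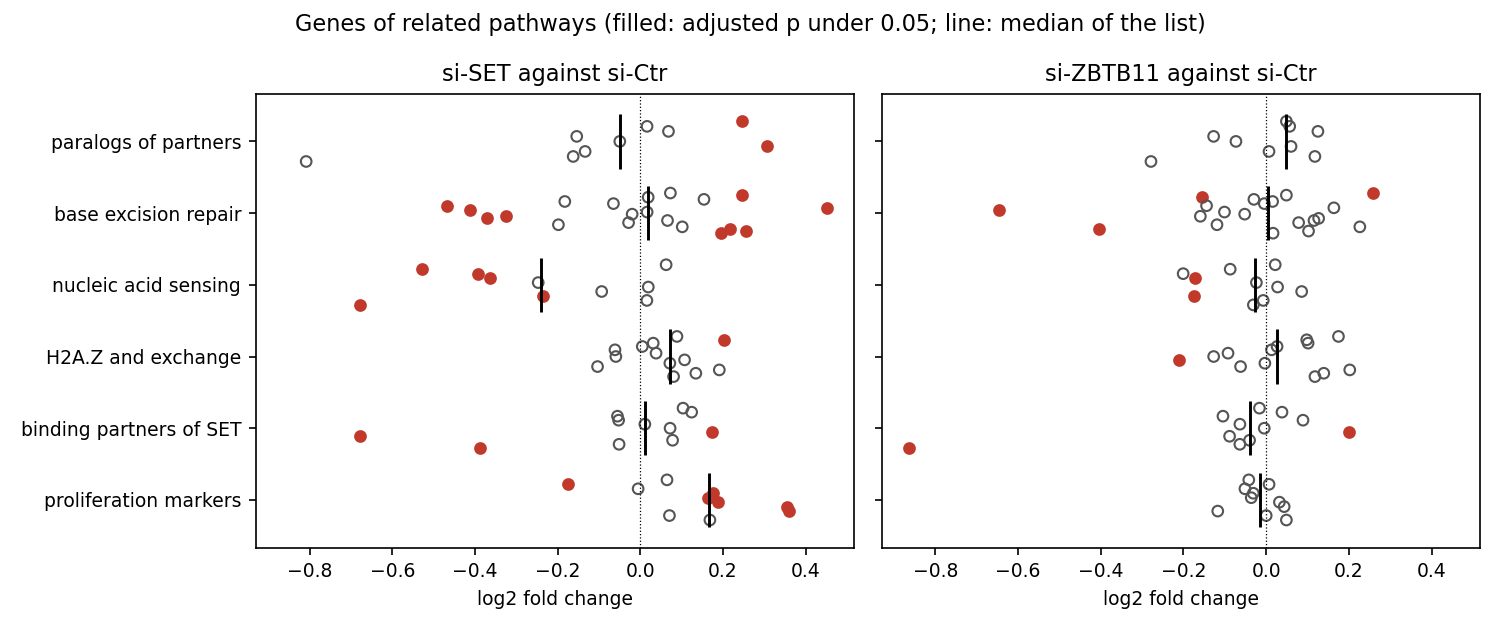
Log2 fold changes of the tested genes of 6 related lists on SET knockdown (left) and ZBTB11 knockdown (right), 1 point a gene, filled where the adjusted p-value was under 0.05, with a line at the list's median. The nucleic acid sensing list has its median at −0.24 on the left and at −0.03 on the right, and the other lists spread around 0 apart from the proliferation markers at 0.17 on the left.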

How the data were processed

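The authors aligned reads to hg38 with HISAT2 2.0.5, counted them per gene with featureCounts 1.5.0-p3 and deposited whole-number counts of 19934 symbols for each of the 6 libraries, without normalization. The counting annotation, strand setting and treatment of multiple matches are not given in the sources used here. Conditions were then tested 2 at a time on these counts in edgeR 4.0.16 under R 4.3.3 (TMM, filterByExpr, two-sided quasi-likelihood test, Benjamini-Hochberg adjustment over all genes, threshold 0.05). Standard errors came from the fold change and the F statistic, and the fits were tested on simulated data. DESeq2 1.42.0, other normalizations and filters, 1 fit of all libraries, the replicate block, the study's criteria and leaving out each library were alternatives. Members and lists were chosen with earlier results of these data known. All members and their copies are named, up to 3 called genes of largest change per list and comparison, and like-pattern genes. FEN1 and the paralogs HMGB1, HMGB3, NME2 and TREX2 were added after their values were seen. Positions came from GENCODE version 44, which matched 19283 symbols. Oligos came from the study's supplement.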

Additional observations from a re-analysis of the deposited data

Results flagged for a closer look

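Apart from SET, the target of one siRNA, the effects of the knockdowns differed for 2 members when the si-SET and si-ZBTB11 libraries were compared directly, without the shared controls. The HMGB2 difference was 0.60 on the log2 scale (edgeR, adjusted p = 8.14e-11), with 163.0 and 165.0 CPM in si-SET against 110.5 and 105.4 in si-ZBTB11. The APEX1 difference was −0.18 (edgeR, adjusted p = 0.0144), with 115.3 and 125.5 CPM in si-SET against 131.7 and 141.9 in si-ZBTB11. DESeq2 did not call the APEX1 difference (adjusted p = 0.074). With 1 library left out it ranged from −0.25 to −0.13.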

How the results depend on the processing

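No log2 fold change of a called member reversed under any alternative. DESeq2 called 1802, 1296 and 1232 genes in the si-SET, si-ZBTB11 and direct comparisons, against 3667, 2771 and 2465 with edgeR, and the study's criteria called 293, 213 and 184 genes and 1, 0 and 1 members. With 1 library left out, 2411 to 2936, 1794 to 2197 and 1799 to 2000 genes and 1 to 4, 2 to 3 and 2 to 3 members were called. The lone library of an arm was then assumed to vary like the other group. The lowest values, 2411 and 1794 genes and 1 member, came without si-Ctr replicate 2. The member calls lost stand beside ANP32B, ANP32E, HMGB2 and APEX1. With the replicate number as a block, 4103, 3155 and 2996 genes and 4, 3 and 3 members were called. Deviations of same-numbered libraries correlated at 0.0257, 0.0114 and 0.0125 over all genes. Such a value does not tell whether some genes share a replicate effect, which was not tested gene by gene. In the order by level per length, the longest transcript left 1 (si-Ctr) and 4 (si-ZBTB11) of 7 members at their place, and the MANE Select length, added after seeing the data, left 0, 3 and 0 in si-Ctr, si-SET and si-ZBTB11. Leaving out a library left 5 to 7 with si-Ctr. The cause of these moves was not tested, and at this depth TREX1, SETSIP and ANP32D gave no test.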
